A study of Mus musculus with 16 samples.

Results

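The regions described here are stretches of open chromatin that were listed in liver and in no other tissue of an 8-tissue mouse survey. They were chosen by the deposited peak values themselves: a region had to carry a −log10 q of at least 2 (column 9 of the peak list) in fed liver, overlap by at least 1 bp a region past the same threshold in fasting liver, and touch no listed peak, at any q, in the 14 lists of the other 7 tissues. Of 201093 fed liver regions at the threshold, 104100 also overlapped a fasting region, and 11861 of these (11.4%) were private to liver. The other 92239, called shared here, were overlapped by a peak of at least 1 other tissue.

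Open chromatin was profiled by ATAC-seq, in which a transposase cuts and tags DNA that is not wrapped in nucleosomes, in liver and in kidney, lung, spleen, heart, muscle and both brown and white adipose of adult male C57BL/6 mice that were either fed freely or fasted for a day. The labels name no engineered allele, and tissue from several mice of a group was pooled, so each tissue and state has 1 library and the series holds 16. Nothing in liver can therefore be tested against replicate error, and differences between the fed and the fasting library compare those libraries and not the 2 states. Bulk nuclei mix all cell types of an organ, so a region open in few cells and one weakly open in many cells cannot be told apart.

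Liver parenchyma consists mostly of hepatocytes, which make the plasma proteins, clear drugs and ammonia, synthesise bile acids and supply glucose and ketone bodies during fasting. Their enhancers are known to be held open by a set of transcription factors, among them HNF4A, HNF1, HNF6 (Onecut1), FOXA and CEBP proteins, most of which also work in some other epithelia. Regulatory sequence that is open in 1 tissue only is generally found away from promoters, since many promoters are open everywhere.

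To show what such DNA looks like, 7 windows of 121 bases centred on the fed summit of a region are given from the GRCm38 genome (RefSeq), plus strand, with matches to any of the 13 motifs listed further on in capitals. The first and second are the strongest regions by mean rank in both states, an intergenic region whose closest coding gene, Rab32, starts 21659 bp away (chr10:10579864-10579984), and an intergenic region whose closest coding gene, Frg1, starts 770203 bp away (chr8:42187217-42187337). The next 4 are the strongest regions within 50 kb of genes with many private regions or with a defining liver role: the albumin gene Alb (chr5:90450052-90450172), tyrosine aminotransferase Tat (chr8:109972918-109973038), the bile acid synthesis enzyme Cyp7a1 (chr4:6275823-6275943) and murinoglobulin 1, Mug1 (chr6:121891529-121891649). The last was picked after its values were seen, as a strong region with an HNF6 motif within 50 kb of the cytochrome P450 gene Cyp2e1 (chr7:140725603-140725723).
near Rab32: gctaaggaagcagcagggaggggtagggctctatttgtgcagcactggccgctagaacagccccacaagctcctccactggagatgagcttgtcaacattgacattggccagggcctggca
near Frg1: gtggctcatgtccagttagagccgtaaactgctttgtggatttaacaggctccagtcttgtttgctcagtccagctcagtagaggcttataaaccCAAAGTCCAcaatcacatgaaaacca
Alb: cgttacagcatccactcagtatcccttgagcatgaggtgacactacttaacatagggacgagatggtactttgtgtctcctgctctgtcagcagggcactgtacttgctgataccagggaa
Tat: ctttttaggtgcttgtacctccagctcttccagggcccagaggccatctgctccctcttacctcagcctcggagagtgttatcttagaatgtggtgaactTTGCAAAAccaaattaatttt
Cyp7a1: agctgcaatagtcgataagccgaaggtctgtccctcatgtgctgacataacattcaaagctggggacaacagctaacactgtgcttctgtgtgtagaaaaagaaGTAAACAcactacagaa
Mug1: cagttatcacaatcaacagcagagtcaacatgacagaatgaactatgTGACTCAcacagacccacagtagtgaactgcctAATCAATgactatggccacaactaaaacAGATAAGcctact
Cyp2e1: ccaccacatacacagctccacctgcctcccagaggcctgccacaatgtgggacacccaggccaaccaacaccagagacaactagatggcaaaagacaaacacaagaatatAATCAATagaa
The window near Frg1 holds an HNF4A motif, that of Tat a CEBP motif, that of Cyp7a1 a FOXA motif, and that of Mug1 an AP-1, an HNF6 and a GATA motif. The windows near Rab32 and Alb match none of the 13 patterns.

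The private regions were of middling strength. A rank, the percentile of a region by p within its own list, had a median of 67.2 in fed and 69.7 in fasting liver, against 79.1 and 80 for shared regions. The fold enrichment over the local background had a median of 3.95 fed (quartiles 3.30 and 5.22, highest 22.0) and 4.45 fasting (quartiles 3.40 and 6.97, highest 39.5). The number of tags at the summit, solved from the fold and the p-value of each row, had a median of 17 fed and 26 fasting, so a typical region rested on few tags. The regions were 167 bp wide at the median in fed and 218 bp in fasting liver, and 75.4% had 1 summit. Both liver libraries were the shallowest of the series, with a genome background of 2.80 tags fed and 2.82 fasting against 3.20 to 12.77 in the other 14.

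The strongest region, near Rab32, had 99 summit tags in fed liver (95% Poisson interval 80.5 to 121, counting error only) and 218 in fasting liver (190 to 249), with folds of 20.9 and 31.8. The region near Frg1 had 90 and 141 tags and folds of 22.0 and 32.4. Both sat above rank 99 in each state. Of the 10 strongest regions, 8 were intergenic, and the nearest protein-coding starts were those of Rab32, Frg1, Zfp960, Cmip, Tpm3-rs7, Ccdc172, Zfp536, 1700009N14Rik, Pxdc1 and Igfbp2. Only the last of these, which encodes a circulating insulin-like growth factor binding protein made by the liver, was on the lists of liver genes used here. Its region lay 15112 bp from the start, with 72 fed and 171 fasting tags. The region nearest Cmip lay only 2 bp from another tissue's peak, and its fasting partner was overlapped by such a peak. Only a distance ties these regions to the genes named.

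At the edge of the rule, the 125 private regions with a fed −log10 q from 2 to 2.1 had 12 summit tags and a rank of 16.8 at the median in fed liver, and a rank of 53.5 in fasting liver. The 118 regions from 1.9 to 2 that met the other conditions had 12 tags, a rank of 15.7 and a fasting rank of 57.8. The 5135 both-state regions overlapped by exactly 1 other list had median ranks of 67.2 fed and 67.1 fasting, close to those of the private regions, and the 32722 overlapped by all 14 had 87.9 fed.

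Kidney removed the most regions from the private set. It overlapped 71.3% of the both-state liver regions, against 55.8% for spleen to 65.3% for white adipose, and 6194 regions were overlapped by kidney alone, against 648 (muscle) to 1571 (spleen) for each of the others. Without kidney the private set would hold 18055 regions. Many private regions also lay beside an open region of another tissue: 38.5% had such a peak within 500 bp, and the median gap was 795 bp. In 703 regions (5.93%) the fasting partner, which was often wider, was itself overlapped by another tissue's peak. Requiring a gap of 500 bp leaves 7295 regions.

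Distance to transcription starts was the first property that the rule did not use. Of the private regions, 2750 (23.2%, exact 95% interval 22.4 to 24.0) had their summit within 3000 bp of an annotated start, against 46.3% (46.0 to 46.7) of shared liver regions. Within 250 bp of a start lay 3.09% of private and 21.3% of shared regions, and within 1000 bp 8.99% and 34.7%. Farther out the order was turned, with 14.2% of private and 11.6% of shared regions from 1000 to 3000 bp, 26.6% and 22.4% from 3000 to 10000 bp, 37.0% and 26.6% from 10 to 50 kb, and 4.44% and 1.19% beyond 100 kb. The median distance was 10088 bp for private and 3872 bp for shared regions, and the farthest private region lay 430480 bp from any start.

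**Figure D1:**
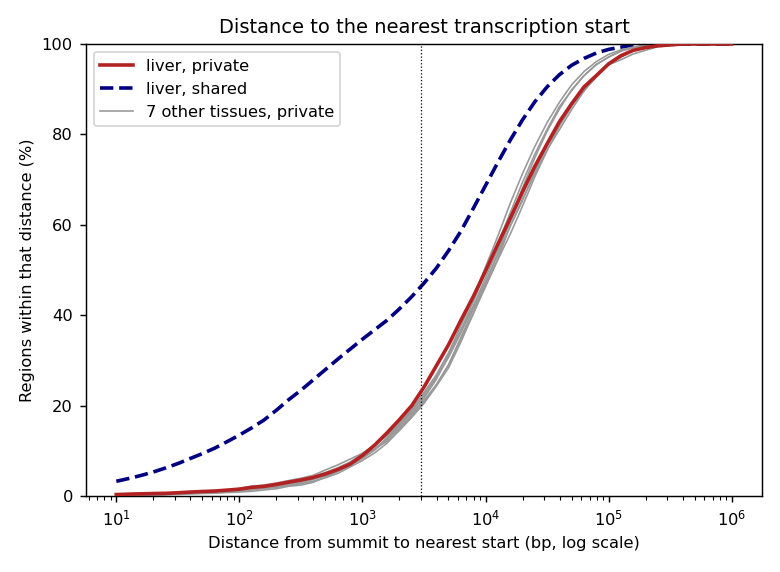
Share of regions (y axis, %) whose summit lies within a given distance of the nearest annotated transcription start (x axis, bp, log scale), for liver-private regions (red), shared liver regions (dashed blue) and the private regions of the 7 other tissues (grey). At the dotted line, 3000 bp, 23.2% of liver-private and 46.3% of shared liver regions lie within the distance, and the other tissues' private regions run from 19.7% to 21.9%.

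The same direction was present in every tissue when the rule was applied to each. Private regions were less often near starts than shared ones in 8 of 8 tissues, by 23.1 percentage points in liver and by 17.6 (brown adipose) to 25.4 (heart) elsewhere (mean difference −20.2, exact sign-flip permutation test over tissues, two-sided p = 0.00781, adjusted p = 0.0469 over 6 tests). That test treats the tissues as independent, which they are not. A region open in several tissues counts as shared in each of them. In liver, 32722 shared regions were overlapped by all 14 other lists, and 72.1% of these lay within 3000 bp of a start. The p-value therefore overstates the evidence from 8 like signs. Against the private regions of the other tissues, liver stood at the upper end, 23.2% against 19.7% to 21.9%. With 8 tissues the exact permutation test of 1 tissue against the other 7 cannot go below p = 0.125, the value reached here (adjusted p = 0.250), so this difference cannot pass 0.05. The median distance of 10088 bp lay inside the range of the other tissues, 9765 to 11595 bp (exact permutation p = 0.50, adjusted p = 0.60).

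By the place of the summit in the gene annotation, 6173 private regions (52.0%) were intronic, 4829 (40.7%) intergenic, 271 in coding exons, 261 in UTRs and 327 in other exons. Shared liver regions were 49.1% intronic and 31.9% intergenic, with 9.95% in UTRs against 2.20% of private regions. The windows of 100 bp on each side of private summits were also poorer in G and C (46.5% against 54.0%), held 2.19 CpG dinucleotides a window against 6.55, and were more often repeat-masked (15.3% of bases against 9.72%). The private windows of the other tissues had GC from 45.9% (kidney) to 50.9% (spleen), 2.14 to 2.62 CpG a window and repeat masking from 11.4% (heart) to 15.6% (kidney and spleen). Spleen was thus nearer to the shared liver windows in GC, and heart in repeat masking, than to the liver-private ones. Private regions made up from 8.20% (chromosome 11) to 14.3% (chromosome 3) of the both-state liver regions of the autosomes, and 10.7% on chromosome X.

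A small set sat directly at annotated starts, counting every annotated transcript of a protein-coding gene. Within 250 bp of a protein-coding start lay 253 private regions, at 226 genes. Those named here are among the strongest and were chosen after their values were seen. The region at the start of Ugt2b35, a glucuronidation enzyme, had folds of 13.3 fed and 17.8 fasting. That of Apof, an apolipoprotein, had 7.84 and 9.67, and that of Abcb11, the bile salt export pump, 8.69 and 12.7. Further regions in the upper part of the order lay at starts of Cyp2d10, C8b, Agxt, Uox, Otc, Gldc and Hao1, and also of Necab1, Csrp3 and Mcm10. Those at Gldc and Mcm10 had their summits in introns. The Mcm10 region lay 58 bp from another tissue's peak, and its fasting partner was overlapped by such a peak. Atp5b, a mitochondrial ATP synthase subunit used by every cell, had a private region 183 bp from a start with folds of 7.03 and 6.32.

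Genes near the private regions were counted by members within 50 kb of any start. Of 21911 protein-coding genes, 8776 (40.1%) had at least 1 private region in that window and 548 (2.50%) had at least 5. Among 177 genes listed for liver functions, 152 (85.9%) had at least 1 and 63 (35.6%) at least 5. The same 177 genes were near private regions of the other tissues in 10.7% (heart) to 66.1% (kidney) of cases, where all genes had 12.1% and 56.2%. The share was above that of all genes in kidney, lung (39.5% against 36.7%) and both adipose tissues (brown 27.7% against 22.9%, white 20.9% against 16.1%), and below it in heart, spleen (43.5% against 52.1%) and muscle (35.0% against 39.5%). With 5 or more it was 0% to 9.04%, against 0.0776% to 7.22% of all genes. The lists were drawn up with earlier results of these data known, and their shares are a description.

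**Figure D2:**
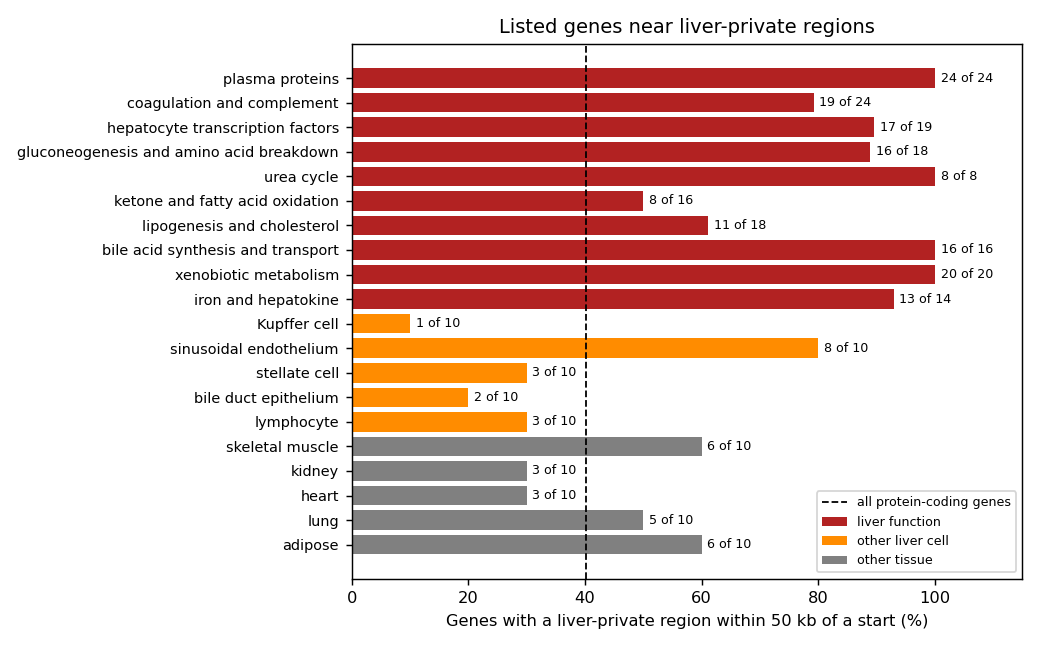
Share of listed genes with at least 1 liver-private region within 50 kb of a start (x axis, %), 1 bar per list, with the number of genes beside it. The dashed line is the share of all protein-coding genes, 40.1%. Plasma proteins, urea cycle, bile acid and xenobiotic genes reach 100%, while ketone and fatty acid oxidation genes reach 50%.

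Plasma protein genes were the fullest list, 24 of 24, with 14 of them at 5 or more. Alb had 17 regions, the iron carrier gene Trf 10, the lipoprotein gene Apob 10, and the fibrinogen chains Fga, Fgb and Fgg 12, 12 and 11, many of them shared between these neighbours. The strongest region near Alb, 10785 bp from its start, had 37 fed and 119 fasting tags. Coagulation and complement genes had a region in 19 of 24 cases. F11 had 13 and C8b 9, and F7, F10, F12, C4b and Masp1 had none.

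All 8 urea cycle genes, 16 of 16 bile acid genes and 20 of 20 xenobiotic genes had a region. Cps1, which encodes the enzyme that fixes ammonia in the first step of the urea cycle, had the most of any gene, 24, and Arg1, its last enzyme, had 12. Among bile acid genes the hepatic uptake transporter Slco1b2 had 14, and the synthesis enzymes Cyp8b1 and Cyp7a1 had 8 and 7. The strongest region near Cyp7a1 lay 250 bp from its start, with 37 fed and 71 fasting tags. Among xenobiotic genes the carboxylesterase Ces1c had 12 and Ugt2b1 9.

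Hepatocyte transcription factor genes had a region in 17 of 19 cases. Nr5a2, a nuclear receptor of bile acid and cholesterol control, had 17, Onecut2 12 and Prox1 11. Onecut1, the gene of HNF6 itself, had 3 in the 50 kb window. A cluster of 7 private regions nearest Onecut1 (chr9:74791258-74801488) lay farther out. Hnf4a and Nr0b2 had none, so the gene of the factor most often named for hepatocyte enhancers had no private region within 50 kb.

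Genes of gluconeogenesis and amino acid breakdown had a region in 16 of 18 cases. Tat had 11 and the tryptophan-degrading Tdo2 9, while Pck1, which commits carbon to glucose, had 3. Ketone and fatty acid oxidation genes were close to the background, 8 of 16. Cpt1a, Cpt2, Acadl, Cyp4a10, Cyp4a14, Fgf21, Angptl4 and Pdk4 had none. Lipogenesis and cholesterol genes stood at 11 of 18, and the genes with none included Fasn, Acacb, Scd1, Thrsp, Pklr and Pnpla3. Iron and hepatokine genes stood at 13 of 14, with 11 regions at Fetub and 6 each at Hamp and Igfbp1.

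Of 50 genes listed for other liver cells, 17 (34.0%) had a region, near the 40.1% of all genes. The shares differed by type over lists of 10 genes each, a difference that was not tested. Sinusoidal endothelial genes had a region in 8 of 10 cases, among them the scavenger receptor gene Stab2 with 8, Gata4 with 6 and Oit3 with 5, and none at Lyve1 and Fcgr2b. Of the macrophage list (Kupffer cells), 1 of 10 had a region, Clec4f, with 15 fed and 13 fasting tags. Stellate cell genes stood at 3 of 10, bile duct genes at 2 of 10, among them Sox9 with 5, and lymphocyte genes at 3 of 10. Of 50 genes listed for other tissues, 23 (46.0%) had a region, near the 40.1% of all genes, and the fullest of them, the lung surfactant gene Sftpa1 with 11, neighbours Mat1a, the methionine adenosyltransferase gene of liver.

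Of all protein-coding genes, those with the most private regions within 50 kb were Cps1 with 24, Mug1 with 21, Ttc39c with 20, and Alb, Il1rap and Nr5a2 with 17 each. Serpina1c followed with 16 and Afp, beside Alb, with 15, and Hao1, Klkb1, Mup20, Serpina1a, Serpina1b, Slco1b2 and Smok3b had 14. F11 and Gm4951 had 13, and Arg1, Ces1c and Csrp3 12, as had others that come later by name. Several, among them the Mug, Serpina1, Mup, Ugt2b, Ces1 and Cyp2d genes, belong to families of near-identical neighbouring copies, where reads may be split between copies and the number of regions is uncertain.

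Along the chromosome, 4695 private regions (39.6%) had another within 10 kb, the median distance to the nearest being 20699 bp. Chaining regions at most 10 kb apart gave 7166 single regions and 1846 clusters of 2 or more, of which 82 held at least 5 and 23 at least 8. The share with a neighbour lay inside the range of the other tissues' private sets, 17.5% (white adipose) to 50% (muscle), and was not set apart from them (exact permutation p = 0.750, adjusted p = 0.750). Those sets differ in size, from 2763 to 22221. With 2000 regions of smallest p in each tissue, liver had 16.2% and the others 7.60% to 23.5%.

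The largest cluster held 31 regions over 89.0 kb of Cps1 (chr1:67117833-67206849), 27 of them in introns. A further 9 lay just downstream of that cluster (chr1:67217570-67234320), 4 of them in introns and 4 intergenic. The 108234 bp gene body held 35 regions, counted over both clusters. In the cluster of 31 the enrichments were low, with a median fold of 2.50 fed and 2.53 fasting and highest values of 5.12 and 5.17. The tags at its summits were many, a median of 35 fed and 70 fasting. The background expected around these summits was itself high, 14.5 tags fed and 27.8 fasting, against 2.80 and 2.82 over the genome. The expected tags come from a wider stretch around each summit, which takes in the tags of neighbouring regions, and the level between the regions was not measured.

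The next clusters lay at Mug1 (18 regions), Gm4951 and Gm4841 (13), Marveld3 and Tat (11) and Ttc39c (10). Clusters of 9 lay at Hao1, Ugt2b36, Sult2a7, Arg1 and Mat1a. The 562 regions in clusters of 5 or more had a median expected 5.41 tags fed and 8.96 fasting, and the 7166 single regions 2.80 and 2.82, a difference that close neighbours can bring about by the way the value is computed. At Alb and Afp (chr5:90463267-90486017, 8 regions) the expected tags were 19.2 and 39.2.

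**Figure D3:**
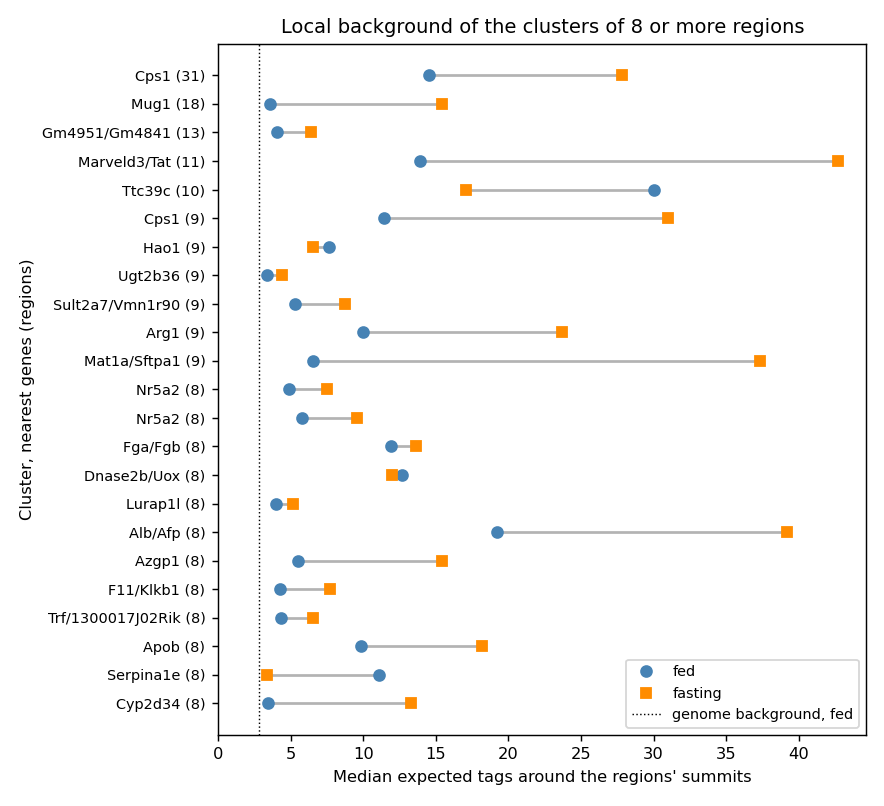
Median expected tags around the summits (x axis) of the 23 clusters with 8 or more liver-private regions (y axis, nearest protein-coding genes with the number of regions), in fed (circles) and fasting liver (squares), with the fed genome background of 2.80 tags as a dotted line. The Tat cluster runs from 13.9 fed to 42.7 fasting, and the Ttc39c cluster runs the other way, from 30.0 to 17.1.

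The expected tags differed between the libraries by cluster. At Marveld3 and Tat (chr8:109972902-110001006) they were 13.9 fed and 42.7 fasting, and the median summit had 36 and 126 tags. At Mat1a they were 6.53 and 37.3, at Mug1 3.58 and 15.4, and at Arg1 9.97 and 23.7. At Ttc39c they were 30.0 fed and 17.1 fasting, and at Serpina1e, named after its values were seen, 11.1 and 3.34. The genome background was 2.80 and 2.82 tags, but expected tags were in general higher in the fasting library, with medians of 2.95 and 3.40 over the private and 3.64 and 4.70 over the shared regions. Each value is from 1 library.

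The ranks in the 2 states are percentiles of lists of unlike length, 239804 regions fed and 217821 fasting, in which the lowest private region stood at 16.2 and 23.5. They share no scale, and the rule used the same values, so they are given as a description. The median shift from fed to fasting was 1.78 rank points (quartiles −8.42 and 13.91), 6555 regions (55.3%) ranked higher in fasting liver, and 602 regions (5.08%) stood at rank 90 or above in both, against 18.8% of shared regions. Pearson's r between the ranks was 0.536 and Spearman's rho 0.586 over the 11861 regions, and 0.611 and 0.714 over the shared ones, all regions of 1 library pair. The summits of the 2 states lay 17 bp apart at the median and within 50 bp in 74.3% of regions.

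**Figure D4:**
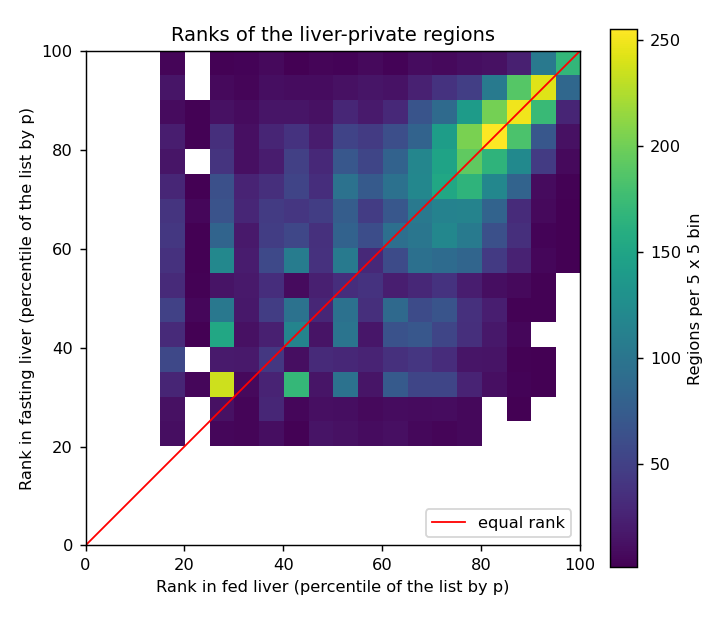
Number of liver-private regions (colour) by rank in fed liver (x axis) and in fasting liver (y axis), both percentiles of the library's list by p, in bins of 5. The red line marks equal rank. The fullest bins lie at ranks of 75 to 95 in both states and at low ranks in both, and the lowest ranks are empty because the threshold on q removed them.

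Summit tags were in general more numerous in the fasting library. Over all 104100 both-state regions the median log2 ratio of fasting to fed tags was 0.61, and over the private regions it was 0.45. Relative to that median of 0.61, 647 private regions (5.45%) were at least 2-fold higher in fasting and 671 (5.66%) at least 2-fold lower, against 7.18% and 4.75% of all both-state regions. The shares near the background say nothing particular about private regions as a whole.

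Near the listed genes the median ratio varied from list to list. These ratios compare summit tags alone, with no allowance for the local expected tags, so a higher ratio need not mean a higher fold. Of 68 private regions near gluconeogenesis and amino acid genes, 17 (25%) were at least 2-fold higher in fasting relative to the common median and 0 lower, with a median log2 ratio of 1.21. The corresponding counts were 12 of 66 and 0 for urea cycle genes (median 1.04) and 4 of 22 and 0 for ketone and fatty acid oxidation genes (median 1.15). Plasma protein genes had 5 of 117 higher and 7 lower (median 0.50), coagulation and complement genes 2 and 5 of 67 (median 0.61), and lipogenesis genes 1 and 1 of 27 (median 0.56). Lists of other kinds also lay above the 0.61 of all regions. Genes listed for lung, among them Sftpa1 beside Mat1a, had 7 of 21 higher and 0 lower, with the highest median of all, 1.26. The medians were 0.89 for adipose, 0.83 for iron and hepatokine, 0.80 for heart and 0.78 each for bile acid and hepatocyte transcription factor genes. The differences between lists were not tested, since the libraries have no replicates.

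The genes behind these counts were few. Tdo2 had 6 of its 9 regions in the higher group, and its strongest went from 26 to 152 tags, with folds of 3.19 and 4.92. Tat had 6 of 11, and Cyp8b1, a bile acid gene, 4 of 8. The strongest region near Tat went from 62 to 143 tags, but its folds were 9.45 and 9.69. That near Cyp8b1 went from 47 to 99 tags, with folds of 7.54 and 6.31. Igfbp1, a hepatokine known to rise in fasting, had 2 of 6. In the other direction stood Ttc39c, with 10 of 20 regions at least 2-fold lower and a median log2 ratio of −0.47. The strongest region near Ttc39c went against this, from 78 to 151 tags. Serpina1c had 8 of 16 lower (−0.37). Its neighbouring copies differed, with 2 of 14 higher and 1 lower at Serpina1b (1.15), and 0 higher and 2 lower at Serpina1a (0.04). Egfr, the receptor of epidermal growth factor, named after its values were seen, had 7 of 12 lower (−0.69). Neighbouring regions share a local background and are not independent.

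The largest rises in rank of single regions came from narrow fed regions. Among regions at rank 50 or more in 1 state, the 5 largest rises lay nearest Nectin3, Fh1, Nr4a2, Chd1l and Cct8. Near Nectin3 a 98 bp fed region with 13 tags was paired with a 629 bp fasting region with 198, and the rank went from 18.1 to 99.8. The fed regions of all 5 rises were 73 to 127 bp wide and their partners 390 to 974 bp, and 3 of the 5 partners were overlapped by another tissue's peak. The 5 largest falls lay nearest Lrp1b, Cmtm8, Astn2, Nfasc and Plekha5. Near Lrp1b the tags went from 40 to 11 and the rank from 94.4 to 30.7. The fed regions of the 5 falls were 145 to 368 bp wide, where the median of all private regions was 167 bp.

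Sequence was read for 100 bp on each side of every fed summit, on both strands, with 13 exact patterns named for HNF6, HNF4A, HNF1, FOXA, CEBP, LRH-1 or ERR, GATA, AP-1, CTCF, SP/KLF, GABP, PU.1 and MEF2. No pattern contains another, and a window may hold several. Such patterns find a part of the sites a factor can use, and a match is a stretch of letters, not a bound site. At least 1 of the 6 liver patterns (HNF6, HNF4A, HNF1, FOXA, CEBP, LRH-1 or ERR) was present in 31.7% of private windows (exact 95% interval 30.9 to 32.6), in 17.2% of shared ones and in 9.31% (spleen) to 27.4% (white adipose) of the other tissues' private windows. Beyond 3000 bp from a start the gap was smaller, 32.1% of private and 21.2% of shared liver windows. Read backwards, which keeps the letters and breaks the motif, the 6 patterns were found in 9.07%. Reversal is not a neutral control for every pattern. The reversed CEBP pattern holds a CpG, which the forward one lacks, and private windows had a mean of only 2.19 CpG. CEBP stood at 14.7% forward and 2.07% backwards, so 9.07% may be too low a baseline.

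The HNF6 pattern, ATTGATT, set liver furthest apart. It was present in 1320 private windows, 11.1% (10.6 to 11.7), against 2.1% of shared liver windows and 0.930% (spleen) to 1.75% (kidney) of the private windows of other tissues. Read backwards it was found in 2.18%, and in 1.45% (spleen) to 4.46% (kidney) of the private windows of other tissues. The forward pattern was present in 1.23% of 93459 windows of the same length around protein-coding starts. The difference from the other tissues' mean of 1.38% was the largest of the 8 tissues, at the smallest p this test can give (exact permutation p = 0.125, adjusted p = 0.250). This pattern was singled out after its values had been seen.

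The share was lower the more of the other lists overlapped the region. From 11.1% with 0 lists it was 4.91% with 1 to 2, 3.0% with 3 to 6, 1.71% with 7 to 13 and 0.721% with all 14, while the backwards pattern went from 2.18% to 0.764%. Within the private set it was 6.44% in the 2966 regions of lowest mean rank and 14.1% in the 2965 of highest. Private regions beyond 3000 bp from a start had 11.7% and those within it 9.09%, and those at least 500 bp from any other tissue's peak had 11.7%. Shared liver regions beyond 3000 bp from a start had 2.79%.

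The HNF4A pattern, CAAAGTCCA, was present in 208 private windows, 1.75% (1.53 to 2.01), and in 1.03% of shared liver windows. Beyond 3000 bp from a start these shares were 1.77% and 1.30%. The private windows of kidney had 2.89%, and those of the other 6 tissues 0.110% to 0.217%. Among liver regions its share was largest in those overlapped by kidney alone, 5.52% (4.97 to 6.12), a set that the rule removes. Liver was not set apart from the other 7 (exact permutation p = 0.250, adjusted p = 0.375). The HNF1 pattern, spelled GTTAATNAT, behaved alike, with 1.45% in liver-private and 4.98% in kidney-private windows. Beyond 3000 bp from a start it was present in 1.45% of private and 1.52% of shared liver windows.

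**Figure D5:**
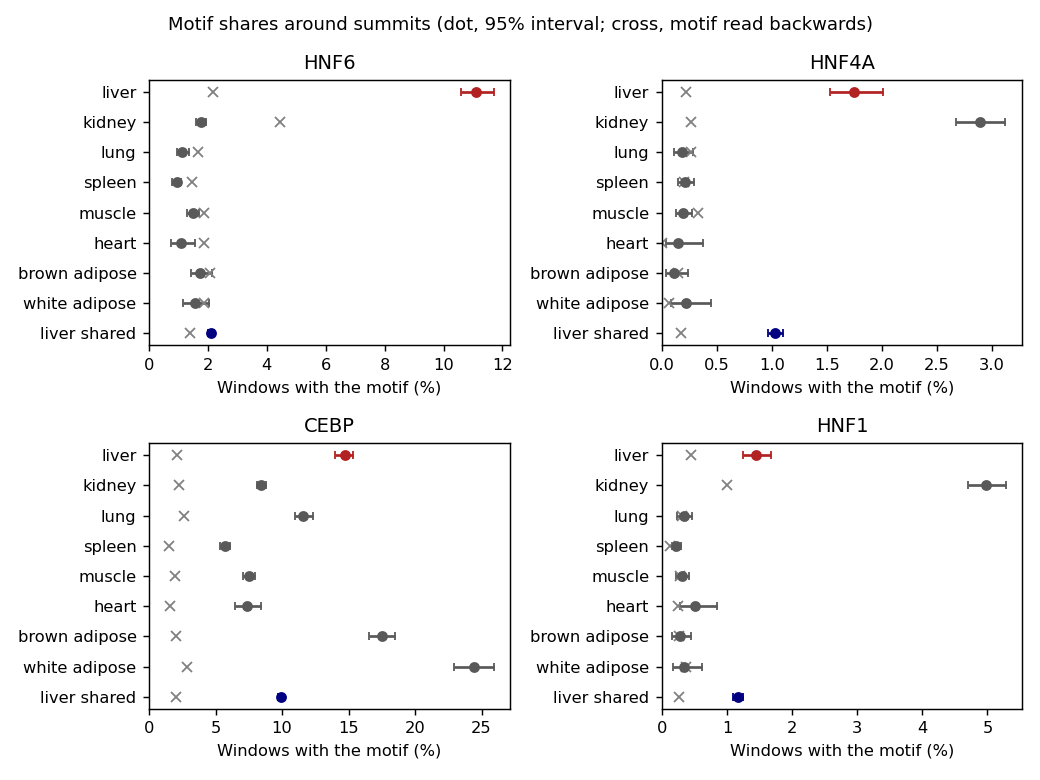
Share of summit windows (100 bp on each side) that hold each of 4 motifs (x axis, %), for the private regions of each tissue and for shared liver regions, with exact 95% intervals and, as crosses, the same motif read backwards. HNF6 stands at 11.1% in liver-private windows and at most 1.75% in the other private sets, while HNF4A and HNF1 are higher in kidney and CEBP in both adipose tissues.

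Each of the other patterns was more frequent in the private windows of some other tissue. CEBP, with the letters TTGCNNAA, was present in 14.7% of liver-private windows, below white adipose at 24.4% and brown adipose at 17.5%. FOXA, spelled TGTTTAC, was present in 6.66%, below lung at 8.68%. GATA, spelled AGATAAG, was present in 4.33%, below heart at 5.61%. AP-1, spelled TGANTCA, was present in 7.50%, inside the range of 5.91% (spleen) to 10.8% (white adipose) of the other tissues, and LRH-1 or ERR, spelled TCAAGGTCA, in 0.793%. Patterns typical of promoters and insulators were rare in the private sets of all 8 tissues. SP/KLF, spelled GGGCGGGG, stood at 0.582% against 6.76% of shared windows. GABP, spelled CCGGAAGT, stood at 0.194% against 1.12%, and CTCF, spelled AGGGGGCGC, at 0.0169% against 1.35%. Against shared regions beyond 3000 bp from a start the gaps in SP/KLF and GABP were smaller, with 1.63% and 0.293% there, and CTCF stood at 1.21%. The other tissues' private windows had 0.579% to 1.56% for SP/KLF, 0.0918% to 0.314% for GABP and 0% to 0.148% for CTCF. MEF2, a motif of muscle factors spelled CTAAAAATA, stood at 0.219%, and PU.1, a motif of blood cell factors spelled GAGGAAGT, at 1.11%.

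Median ranks were higher with than without 5 of the 6 liver patterns in both states, and for LRH-1 or ERR the fed median was lower, 64.6 against 67.2. The median fed and fasting ranks were 72.4 and 74.6 with the HNF6 pattern and 67.2 and 68.9 without, and 73.8 and 78.9 with HNF4A against 67.2 and 69.5 without. Of HNF6 windows 16.6% also held CEBP, against 14.4% of the others, and 1.52% held HNF4A, against 1.78%. In all, 8096 private regions held none of the 6 liver patterns, 3233 held 1, 507 held 2 and 25 held 3.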

How the data were processed

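The deposited files are 16 ATAC-seq peak lists, 1 pooled library per tissue and state. Per the methods, the authors aligned reads with Bowtie2 (GRCm38 per the labels), removed unmapped reads and duplicates, called peaks with MACS2 and took a q-value under 0.01 as open. Some deposited lists reach below that threshold, and the names of the lists mark a call at a p of 0.01, the removal of mitochondrial reads, a cap on the number of peaks and a last filter, steps that the methods do not spell out. In the deposited lists 8 of the 14 of other tissues end above a −log10 q of 2, so weaker peaks of those tissues were not analysed here. Per the files' layout, the authors' values are a fold (a ratio of tags to expected tags), a −log10 p-value and a −log10 q-value, and a summit position.

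Rows with equal coordinates were merged, keeping the smallest p. Summit tags and expected tags were solved as whole tags from fold and p, within 0.001 of −log10 p, in every private region, and the solver was tested on simulated data. A fasting partner is the region with most shared bases. Distances ran from the fed summit to GENCODE vM21 starts (132629 distinct). Shares carry exact Clopper-Pearson 95% intervals, which cover counting error only, as do the Poisson intervals. With 1 library per group no comparison within liver was tested. Tests were exact permutations over tissues with Benjamini-Hochberg adjustment over 6. Tools were Python 3.11.15, numpy 2.4.6, pandas 2.3.3, scipy 1.17.1, pysam 0.24.0 and samtools 1.23.1. Alternatives are given in the closing section.

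The regions, gene lists and motifs were chosen with earlier results of these data known. Named genes are the 20 with most private regions within 50 kb, the listed genes, those nearest the 10 strongest regions, the 5 largest rises and falls in rank, and the 10 fullest clusters with those tied. Names outside that rule are said to be chosen after their values were seen. Some listed genes are counted in their lists but not reported here by name.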

Additional observations from a re-analysis of the deposited data

How the results depend on the processing

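The number of private regions was 4176 with a −log10 q of at least 6 in both states, 7295 at 500 bp or more from another tissue's peak, and 12509 (without muscle) to 18055 (without kidney) when each other tissue was left out. It stayed within 1.5 times of 11861 with the fasting regions as members (11284), with 50% of both lengths shared (8771), with the 100000 strongest regions of each list (9825), and, chosen after seeing the data, with liver regions merged first (10701). The share of liver function genes with a region was 79.1% within 25 kb (all genes 26.7%), 74.6% by the nearest start alone (20.8%), 66.7% at the stricter q (20.1%) and 69.5% at 500 bp or more from another tissue's peak (26.2%), above the share of all genes in each. The difference in promoter share ran from −20.5 to −19.4 percentage points when each tissue was left out. Apart from the motifs read backwards, which serve as controls and where the difference of liver from the other tissues' mean fell to 0.00587 percentage points for HNF6 (exact permutation p = 1) and 0.0379 for HNF4A (p = 0.875), the alternatives kept the direction of liver against the other tissues, but the margin of the promoter share was small with a 1000 bp window (8.99% in liver, 7.87% to 9.48% elsewhere). No paired analysis was possible because each group has 1 library, so replicates could not be paired; the private and shared regions were compared within each of the 8 tissues. Lists that end at a high q, and the low depth of both liver libraries, limit what can be called private: weaker peaks of other tissues were not analysed here.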

Other observations

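Each other tissue, under the same rule, also had private regions: 22221 in kidney, 16236 in spleen, 14685 in muscle, 10397 in lung, 5448 in brown and 3227 in white adipose, and 2763 in heart. The largest run of neighbouring private regions was 57 in muscle, 31 in liver and 25 in kidney. Motifs of the private sets differed by tissue: PU.1 was present in 5.72% of spleen-private windows against 1.11% in liver, and MEF2 in 3.11% of heart-private windows against 0.219% in liver. Soft-masked repeats made up 15.3% of bases in liver-private windows, and 16.5% in the 2966 regions of lowest and 13.3% in the 2965 of highest mean rank. In liver-private windows 57.4% of FOXA matches lay within 50 bp of the summit, against 40.6% of backwards matches, 45.0% of HNF6 against 40.3%, 46.4% of CEBP against 35.7%, and 37.0% of HNF1 against 29.1%. The order was the other way for HNF4A (49.0% against 53.8% of only 26 backwards matches), LRH-1 or ERR (43.2% against 50%) and AP-1 (50.4% against 58.4%). Matches of HNF6, CEBP, HNF1 and HNF4A did not gather at the summit itself. HNF6 had 75 and 78 matches in the 20 bp on each side of it, against 232 and 213 at 40 to 60 bp. CEBP had 131 and 125 against 260 and 254, HNF1 8 and 9 against 31 and 31, and HNF4A 9 and 14 against 34 and 30.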
